A study of Mus musculus with 20 samples.

Results

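Transcripts of 6 genes encoding subunits of the transcription factor AP-1 were followed in cultured mouse hippocampal neurons: Fos, Fosb and Fosl2 of the FOS family, and Jun, Junb and Jund of the JUN family. They were taken by symbol from the gene-level count table, where all 6 were present among 24419 genes and all 6 passed the filter on low counts, as members of the 14411 genes tested. Each culture came from the hippocampi of 4 pooled C57BL6 embryos taken on embryonic day 18. Between day 3 and day 6 in vitro it contained 4 µM cytosine arabinoside, which removes cycling cells, and it was stimulated on day 10. The TPA group received the zinc chelator TPA, that is tris(2-pyridylmethyl)amine, at 10 µM for 1 min and then together with 50 µM glutamate. The zinc group received 50 µM glutamate with 10 µM ZnCl2, the glutamate group 50 µM glutamate, and the control group medium alone. In every group the pulse lasted 2 min and the cells were kept for another 90 min before lysis. Each group had 5 libraries of polyadenylated RNA, and there was no group here with zinc alone or TPA alone.

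FOS and JUN proteins bind DNA as dimers held together by leucine zippers. FOS proteins need a JUN partner for this, while JUN proteins also pair with each other. In neurons, calcium entering through NMDA receptors and voltage-gated channels activates kinases that act on CREB and on SRF with its ELK partners, factors already sitting at the promoters of Fos and its relatives, so that their transcripts accumulate within minutes and decay soon after. Zinc is stored with glutamate in many hippocampal synaptic vesicles and inhibits NMDA receptors. The comparisons ask which AP-1 subunits respond to a short glutamate pulse and whether adding or chelating zinc during the pulse alters that.

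The promoters of the 4 members that stood highest over control are shown with their matches to a set of motifs that included sites of CREB and SRF. Fos, Fosb and Junb held the core of the CREB site, Jun did not, and the SRF site matched in none. Each line gives the 120 bases before the RefSeq transcript start on build GRCm38.p6, 5′ to 3′ on the gene's strand, with motif matches in capitals (TGACG, the core of the CREB site, TGACGCAA, TATAAA and CCAAT).
Fos, chr12:85473770-85473889, plus strand: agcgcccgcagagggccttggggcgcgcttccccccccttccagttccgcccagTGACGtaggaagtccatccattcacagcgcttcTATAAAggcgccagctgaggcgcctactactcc
Fosb, chr7:19310046-19310165, minus strand: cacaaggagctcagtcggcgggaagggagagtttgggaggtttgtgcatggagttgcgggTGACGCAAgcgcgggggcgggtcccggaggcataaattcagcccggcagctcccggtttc
Junb, chr8:84978749-84978868, minus strand: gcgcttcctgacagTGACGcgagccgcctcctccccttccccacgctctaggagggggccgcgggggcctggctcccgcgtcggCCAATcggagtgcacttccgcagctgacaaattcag
Jun, chr4:95052223-95052342, minus strand: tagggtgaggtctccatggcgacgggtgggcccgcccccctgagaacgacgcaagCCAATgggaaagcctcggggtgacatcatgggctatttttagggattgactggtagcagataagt

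Counted back from the transcript start, Fos held TGACG at -66 to -62 and again at -129 to -125, outside the stretch printed, and TATAAA at -33 to -28. Fosb held TGACGCAA at -60 to -53. Junb held TGACG at -106 to -102 and CCAAT at -36 to -32, and Jun held CCAAT at -65 to -61. Both strands of 250 bases before the start were searched for TGACG, the longer TGACGTCA, TGACGCAA and TGACGTAA that contain it, the AP-1 site TGAGTCA (whose complement is TGACTCA), the CArG box bound by SRF, TATAAA and CCAAT. Among 32851 mouse promoters of this length, TGACG was present in 17.8%, TGACGCAA in 0.438%, TATAAA in 12.4% and CCAAT in 33.8%. TGACGTCA was present in 1.55%, TGACGTAA in 0.447%, the AP-1 site in 4.46% and the CArG box in 1.47% of them. These last 4 motifs matched in none of the 6 members, and Fosl2 and Jund matched none of the motifs searched, which says only that these letters are not in the window. For Jund the RefSeq start lies well upstream of the start in GENCODE M21, so the window searched may not be the promoter in use. The SRF site described for Fos lies farther upstream than the bases searched.

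In the authors' mm10 annotation, Fos lies at chr12:85473901-85477270 on the plus strand with 4 exons, Fosb at chr7:19302696-19310045 on the minus strand with 4 exons, and Fosl2 at chr5:32136472-32157839 on the plus strand with 4 exons. Jun (chr4:95049036-95052222, minus strand), Junb (chr8:84976909-84978748, minus strand) and Jund (chr8:70697739-70700616, plus strand) each consist of 1 exon. The GENCODE M21 annotation places the antisense gene Junos over 689 bases of Jun and Gm11175 over 919 bases of Jund. Neither is among the genes counted, and since it is not given whether reads were counted by strand, antisense reads cannot be told apart in those 2 genes. Fosb yields full-length FosB and the truncated ΔFosB by splicing, which a gene-level count does not separate. Copies of ATTTA, the core of the elements by which such mRNAs are marked for fast decay, numbered 4 in the 815-base 3′ UTR of Fos, 1 in 2302 bases of Fosb, 8 in 4653 bases of Fosl2, 4 in 1233 bases of Jun, 2 in 485 bases of Junb and 1 in 533 bases of Jund. Per kilobase this was 4.91 in Fos, 4.12 in Junb, 3.24 in Jun, 1.88 in Jund, 1.72 in Fosl2 and 0.434 in Fosb. The median over mouse genes was 1.35, so only Fosb lay below it.

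Library totals lay between 28692470 and 40934630 counts, and a limit of 3 counts corresponded to 0.0733 to 0.105 CPM, which covers counting error only. CPM values are counts scaled to library size with TMM factors of 0.972 to 1.03. Replicates are biological ones in the labels' terms, yet each rests on pooled tissue. The p-values set group differences only against the spread among these libraries, which may be partly technical. In bulk cultures, fewer cells of a type and less RNA per cell cannot be told apart. Neuronal markers were abundant, with 11 genes summing to 5453 to 6437 CPM in every library, and astrocyte markers summed to 736 to 952 CPM. Most of the astrocyte sum came from Slc1a2, with a median of 650 CPM, against 100 CPM for Slc1a3 and 43.6 CPM for Gfap. Microglial markers summed to 2.41 to 3.85 CPM, with Tmem119 at 0 in 10 libraries and Cx3cr1 and P2ry12 at 0 in 4 each. Over all tested genes, 3 libraries lay farthest from their group means, with root mean square deviations of 0.249 (log2) for glutamate replicate 5, 0.240 for glutamate replicate 4 and 0.239 for zinc replicate 5, against 0.150 to 0.217 for the other 17. Of the other 17, zinc replicate 4 was the highest, at 0.217. Leaving the 3 farthest out was added as an alternative after the values were seen, and its effect is given beside the results it changes. It also raised the share of all genes called in either direction, to 0.0825% with TPA, 1.59% with zinc, 0.687% with glutamate and 0.0893% in the mean over control, to 7.90% for TPA over zinc and to 3.79% for TPA over glutamate.

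Per transcript length, Fosl2 and Jund were the most abundant members and Fosb the least abundant in all 4 groups. In control cultures the level in deposited TPM (scaled to gene length and to the library) averaged 185 ± 9.47 for Fosl2, 179 ± 11.0 for Jund, 85.5 ± 3.65 for Jun, 50.3 ± 6.47 for Fos, 31.7 ± 3.15 for Junb and 6.40 ± 0.579 for Fosb (SD, n = 5). Fosl2 and Jund overlapped in range in every group, and every other neighbour in this control order was separated without overlap. In the TPA group Fos averaged 112 ± 6.56 TPM and stood above Jun at 94.3 ± 3.61 TPM without overlap, whereas in control Jun stood above Fos. In the zinc group Fos at 97.8 ± 30.3 TPM and Jun at 100.4 ± 6.48 TPM overlapped, and in the glutamate group Fos at 110.1 ± 27.8 TPM and Jun at 101 ± 8.61 TPM overlapped too. Averaged over the 20 libraries, Fosl2 and Jund lay at percentiles 91.9 and 91.5 of the tested genes by TPM, Jun and Fos at 82.6 and 82.0, Junb at 65.3 and Fosb at 38.0.

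**Figure D1:**
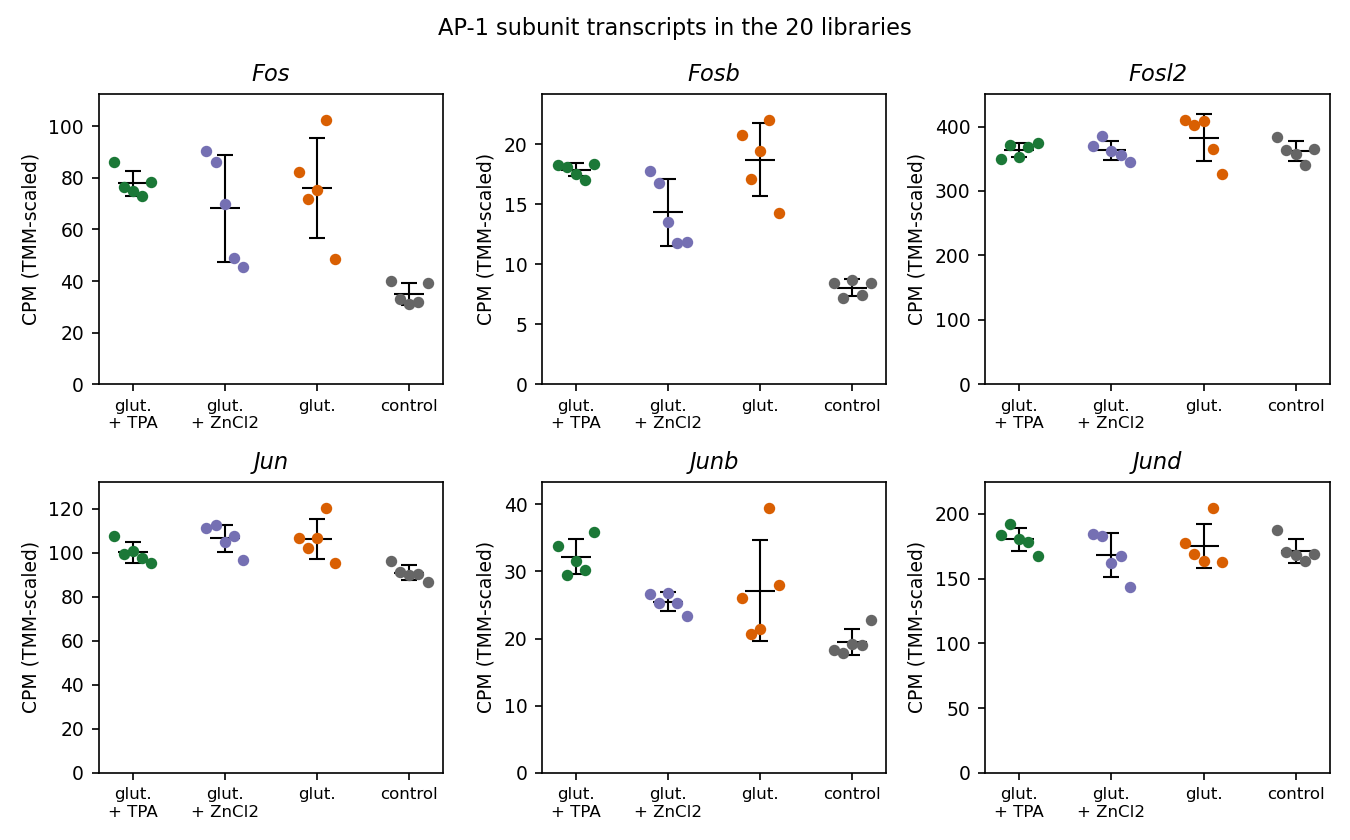
CPM of the 6 AP-1 subunit genes in the 20 libraries (y axis from 0, TMM-scaled CPM), by group, with the mean and SD (bars, n = 5) and libraries in the order of their replicate numbers. All 15 stimulated libraries lie above the 5 controls for Fos and Fosb, while Fosl2 and Jund lie at similar levels in the 4 groups.

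Fos and Fosb, the FOS subunits made on demand, were the members with the largest differences from control. Averaged over the 3 stimulated groups, Fos rose 2.11-fold over control (95% interval 1.66 to 2.68) and Fosb rose 2.09-fold (1.81 to 2.42), and both were higher in 15 of 15 stimulated libraries than in any control. Junb was higher in 13 of 15 and Jun in 13 of 15 without passing the threshold, and Fosl2 and Jund differed little from control. At an adjusted p under 0.05 in edgeR's quasi-likelihood test this comparison called 2 of 6 members higher, against 0.0486% of all tested genes. Only 6 genes, 0.0416% of those tested, had all 15 stimulated libraries above all 5 controls, namely Fos, Fosb, Gadd45g, Klf4, Nfkbiz and Tmem163, of which the last 4 are named after their values were seen. The median log2 fold change was 0.36 over the 6 members and -0.00 over all tested genes.

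Fos, the founding FOS gene and the usual marker of recent neuronal activity, had 86.0, 76.4, 75.0, 73.0 and 78.5 CPM in replicates 1 to 5 of the TPA group and 90.5, 86.0, 69.8, 48.7 and 45.5 CPM in the zinc group. It had 82.1, 71.8, 75.1, 102 and 48.7 CPM in the glutamate group, against 40.1, 33.2, 31.0, 31.7 and 39.3 CPM in control. Every stimulated library exceeded every control, and the lowest were zinc replicates 4 and 5 and glutamate replicate 5. Over control, the log2 fold change of Fos was 1.15 ± 0.19 with TPA (SE, edgeR adjusted p = 0.0213), 0.96 ± 0.19 with zinc (adjusted p = 0.0923), 1.12 ± 0.19 with glutamate (adjusted p = 0.0502) and 1.08 ± 0.17 for the mean of the 3 (adjusted p = 0.0158). Fos thus passed the threshold with TPA and in the mean, and missed it with zinc and with glutamate. Its unadjusted edgeR p was 1.25e-05 with TPA, 1.74e-05 with glutamate and 9.61e-05 with zinc, with a standard error of 0.19 in each. The coefficient of variation of Fos was 6.46% in the TPA group, 30.4% in the zinc group and 25.4% in the glutamate group, against 12.3% in control.

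Several of these Fos calls turn on single libraries. With TPA, edgeR's adjusted p for Fos lay between 0.0504 and 0.0962 without control replicate 2, 3, 4 or 5 or TPA replicate 1, 2, 3 or 5, and it was 0.067 with no filter on low counts. In the mean of the 3 groups it was 0.0799, 0.117 and 0.0899 without control replicate 2, 3 or 4 and 0.0563 with no filter on low counts. With glutamate, Fos passed at 0.00689 without glutamate replicate 5, and at 0.0256 to 0.0487 without zinc replicate 1, 2, 4 or 5. With zinc, it passed at 0.0333, 0.029 and 0.0399 without glutamate replicate 5, zinc replicate 4 or zinc replicate 5. Without the 3 farthest libraries Fos passed with zinc (log2 fold change 1.08, adjusted p = 0.00432) and with glutamate (1.12, adjusted p = 0.00726).

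Fosb, which encodes FosB and the long-lived ΔFosB, had 18.3, 18.1, 17.6, 17.0 and 18.4 CPM in the TPA group and 17.7, 16.8, 13.5, 11.8 and 11.8 CPM in the zinc group. In the glutamate group it had 20.7, 17.1, 19.4, 22.0 and 14.3 CPM, against 8.47, 7.17, 8.70, 7.45 and 8.47 CPM in control. The TPA libraries lay close together, zinc replicates 3, 4 and 5 were the lowest of the stimulated ones, and no stimulated library overlapped with control. Fosb rose in every comparison with control, by a log2 fold change of 1.15 ± 0.12 with TPA (SE, edgeR adjusted p = 2.86e-05), 0.83 ± 0.12 with zinc (adjusted p = 0.00304), 1.22 ± 0.12 with glutamate (adjusted p = 1.31e-05) and 1.07 ± 0.10 for the mean (adjusted p = 9.48e-06). It ranked first by p-value of all tested genes with TPA, with glutamate and in the mean, and passed the threshold in every alternative run, also without each single library.

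Junb, an immediate early JUN subunit and on many promoters a weaker activator than c-Jun, had 33.8, 29.5, 31.6, 30.2 and 35.9 CPM in the TPA group and 26.7, 25.3, 26.8, 25.2 and 23.3 CPM in the zinc group. It had 26.1, 20.7, 21.4, 39.4 and 28.0 CPM in the glutamate group, against 18.3, 17.9, 19.2, 19.1 and 22.8 CPM in control. The TPA and zinc libraries all exceeded the controls, while 2 glutamate libraries lay within the control range and glutamate replicate 4 was the highest of all 20. Over control, Junb rose in the group given TPA with glutamate, by a log2 fold change of 0.73 ± 0.13 (SE, edgeR adjusted p = 0.0213). It differed by 0.39 ± 0.13 with zinc (adjusted p = 0.301), 0.48 ± 0.13 with glutamate (adjusted p = 0.612) and 0.53 ± 0.11 in the mean (adjusted p = 0.110), none past the threshold. The call with TPA was lost without control replicate 1, 2, 3 or 4 or TPA replicate 1, 3 or 5, with adjusted p between 0.0573 and 0.111, and with no filter on low counts (0.0853). On leaving out each library, the log2 fold change of Junb with TPA lay between 0.68 and 0.79. In the mean, Junb passed without glutamate replicate 2 (0.0247) or glutamate replicate 4 (0.00226), and with zinc it passed without the 3 farthest libraries (log2 fold change 0.42, adjusted p = 0.0122), as it did in the mean (0.46, adjusted p = 0.000522).

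Jun, which encodes c-Jun, a strong transcriptional activator, differed little in size but steadily in direction. It had 107, 99.2, 101, 97.5 and 95.4 CPM in the TPA group and 111, 113, 105, 108 and 96.7 CPM in the zinc group. It had 106, 102, 106, 120.1 and 95.2 CPM in the glutamate group, against 96.0, 91.3, 89.9, 90.3 and 86.7 CPM in control. All zinc libraries lay above the controls, and replicate 5 of the TPA group and of the glutamate group each lay just inside the control range. The log2 fold change of Jun was 0.14 ± 0.05 with TPA (SE, edgeR adjusted p = 1.00), 0.23 ± 0.05 with zinc (adjusted p = 0.106), 0.22 ± 0.05 with glutamate (adjusted p = 0.292) and 0.20 ± 0.04 in the mean (adjusted p = 0.163). None passed, though the 95% interval of the mean, 0.11 to 0.29, lay above 0. Jun passed with zinc without glutamate replicate 4 (adjusted p = 0.0416) and in the mean without glutamate replicate 5 (0.0492). With a block for the replicate number in the edgeR fit, Jun passed with zinc (adjusted p = 0.0208), where 0.271% of all genes were called. It also passed in the mean with that block (adjusted p = 0.0338), where 0.0416% were called. Without the 3 farthest libraries it passed with zinc (log2 fold change 0.26, adjusted p = 0.00228), with glutamate (0.21, adjusted p = 0.0289) and in the mean (0.20, adjusted p = 0.00239).

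Fosl2, which encodes Fra-2, a FOS protein lacking the strong activation domain of c-Fos, had 349.7 to 375 CPM in the TPA group with a median of 369, 346 to 385 CPM in the zinc group with a median of 362, 326 to 410.3 CPM in the glutamate group with a median of 402, against 340.0 to 384 CPM in control with a median of 364. In the glutamate group, 3 libraries, at 410.3, 402 and 409 CPM, exceeded the controls, and glutamate replicate 5, at 326 CPM, lay below them. The log2 fold change of Fosl2 in the mean was 0.03, with a 95% interval of -0.06 to 0.12. Without the 3 farthest libraries, Fosl2 passed with glutamate over control (log2 fold change 0.17, edgeR adjusted p = 0.0445). Jund, whose product JunD is present in most resting cells, had 168 to 192 CPM in the TPA group with a median of 181, 144 to 185 CPM in the zinc group with a median of 167, 163 to 204 CPM in the glutamate group with a median of 169, against 163 to 187 CPM in control with a median of 169. Its groups overlapped in all comparisons, and its log2 fold change in the mean was 0.03, with a 95% interval of -0.08 to 0.14.

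**Figure D2:**
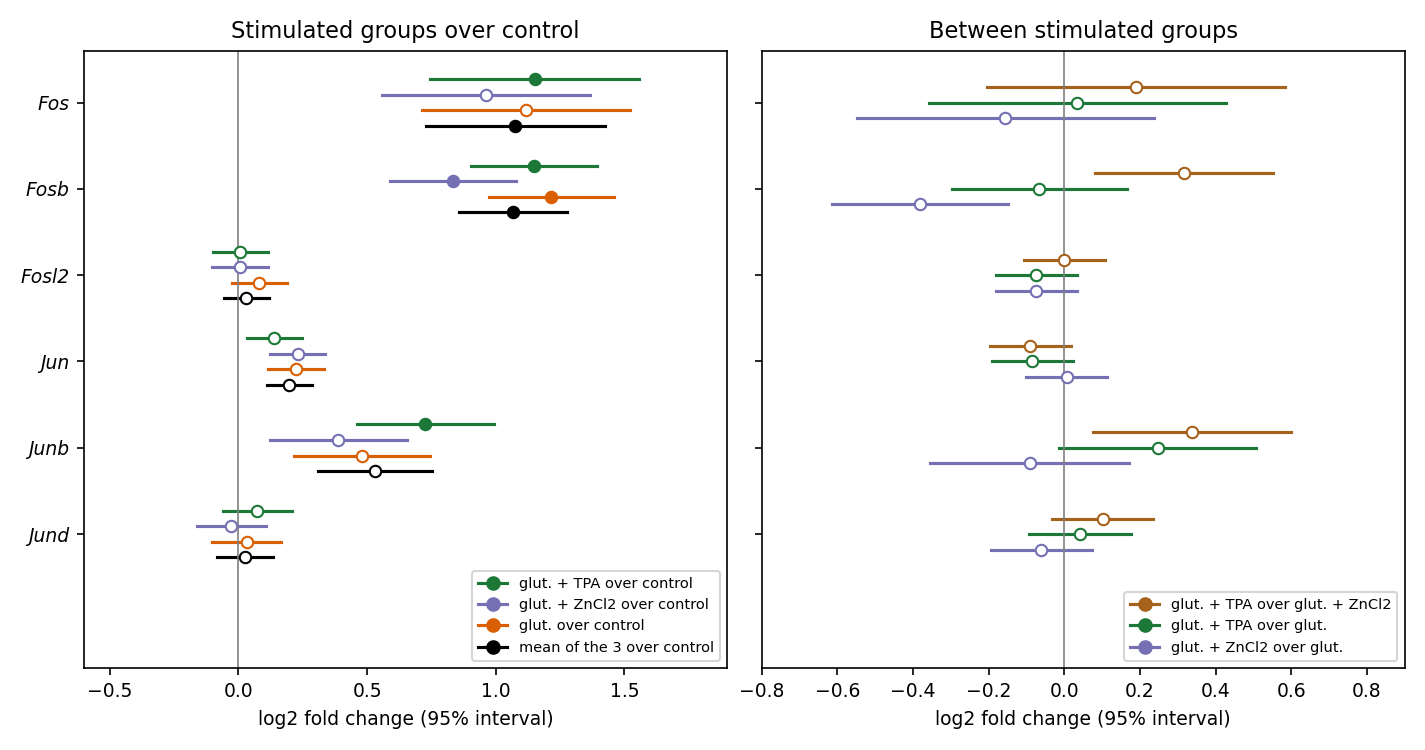
Log2 fold changes of the 6 members with 95% intervals from the edgeR fit of all 20 libraries, over control (left) and between stimulated groups (right). Filled circles passed an adjusted p under 0.05, which in the left panel were Fosb in all 4 comparisons, Fos with TPA and in the mean, and Junb with TPA, and in the right panel none.

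Set against the whole table, the counts for single groups were as follows. With TPA over control 3 of 6 members, Fos, Fosb and Junb, were called higher by edgeR, against 0.0694% of all tested genes, and the same 3 members had all 5 TPA libraries above all controls, against 0.742% of tested genes. With zinc 1 of 6, Fosb, was called, against 0.0208% of tested genes, and 4 of 6, Fos, Fosb, Jun and Junb, did not overlap with control, against 1.31%. With glutamate 1 of 6, Fosb, was called, against 0.0208%, and Fos and Fosb did not overlap, against 0.527%. The median log2 fold change over the members was 0.43 with TPA, 0.31 with zinc and 0.35 with glutamate, and within 0.01 of 0 over all tested genes. The 3 comparisons share the same control libraries. Summed CPM of 5 fibroblast and meningeal markers ran from 3.97 to 5.59 with TPA, from 4.70 to 5.62 with zinc and from 3.92 to 6.15 with glutamate, against 3.10 to 4.68 in control. None of these 5 genes was called (edgeR, 0 of 5 at an unadjusted p under 0.05 with TPA and glutamate and 1 of 5 with zinc, where 11.1% of all tested genes were; DESeq2 and limma-voom 0), and their part in the result was not tested.

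The authors' deposited log2 fold changes given next were smaller than those fitted here, to an extent that differed between genes. In the authors' deposited table for TPA over control (0.0572% of genes called) Fosb had 0.56 (adjusted p = 7.66e-17), Fos 0.29 (0.000117), Junb 0.35 (8.51e-06) and Jun 0.11 (1.00). In the authors' deposited table for zinc over control (0.561% called) Fosb had 0.39 (4.7e-07), Fos 0.23 (0.00751), Jun 0.19 (0.0115) and Junb 0.18 (0.132). In the authors' deposited table for glutamate over control (0.0545% called) Fosb had 0.59 (1.63e-19), Fos 0.28 (0.00103), Jun 0.18 (0.0596) and Junb 0.22 (0.152). The deposited tables thus called Fos in all 3 comparisons and Jun with zinc, where edgeR did not call Fos with zinc or glutamate, nor Jun. DESeq2 run here called Fos, Fosb and Jun with zinc, where it called 0.444% of all tested genes. It called the same 3 with glutamate, where it called 0.0971% of all tested genes and the deposited table did not call Jun.

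Between the stimulated groups no member passed the threshold, and Junb and Fosb had the largest differences between TPA and zinc. For TPA over zinc, 0 of 6 members were called by edgeR, against 0.513% of all tested genes. At an unadjusted p under 0.05 there were 2, Fosb and Junb, against 16.0% of all tested genes, and DESeq2 and limma-voom called 0. Junb was 32.2 ± 2.64 CPM with TPA and 25.5 ± 1.42 CPM with zinc (SD, n = 5 each). All 5 TPA libraries of Junb exceeded all 5 zinc libraries, as in 1.98% of tested genes, with a log2 fold change of 0.34 (95% interval 0.08 to 0.60, edgeR adjusted p = 0.188). Junb passed without glutamate replicate 4 (0.34, adjusted p = 0.0470), where 1.02% of all genes were called, and without the 3 farthest libraries (0.31, adjusted p = 0.0156), where 7.90% of all genes were called. Fosb was 17.9 ± 0.561 CPM with TPA and 14.3 ± 2.78 CPM with zinc, a log2 fold change of 0.32 (0.08 to 0.55, adjusted p = 0.166), with 3 of 5 TPA libraries above all zinc libraries. Fos differed by 0.19 (-0.20 to 0.58), Jund by 0.10 (-0.03 to 0.24), Jun by -0.09 (-0.20 to 0.02) and Fosl2 by 0.00 (-0.11 to 0.11).

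For TPA over glutamate edgeR called 0 of 6 members, and 0% of all genes. No member had an unadjusted p under 0.05, against 1030 genes in the table, and DESeq2 called 1 gene and limma-voom 0, none of them a member. Junb had the largest difference among the members, 0.25 (95% interval -0.01 to 0.51), at 32.2 ± 2.64 CPM with TPA and 27.1 ± 7.52 CPM with glutamate. Without the 3 farthest libraries, 2 of them in the glutamate group, Junb passed (log2 fold change 0.50, edgeR adjusted p = 0.00586) and so did Fosl2 (-0.16, adjusted p = 0.0259), in a setting that called 3.79% of all genes. The remaining members differed by 0.03 for Fos (-0.36 to 0.43), -0.07 for Fosb (-0.30 to 0.17), -0.08 for Jun (-0.19 to 0.02) and 0.04 for Jund (-0.09 to 0.18). For zinc over glutamate edgeR again called 0 of 6 members and 0% of all genes. Fosb was the only member with an unadjusted p under 0.05, of 862 such genes, and DESeq2 called 2 genes and limma-voom 0, none of them a member. Fosb was 14.3 ± 2.78 CPM with zinc and 18.7 ± 3.07 CPM with glutamate, a log2 fold change of -0.38 (-0.61 to -0.15, adjusted p = 0.634). Fos differed by -0.16 (-0.55 to 0.24), Junb by -0.09 (-0.35 to 0.17), Fosl2 by -0.07 (-0.18 to 0.03), Jund by -0.06 (-0.19 to 0.07) and Jun by 0.01 (-0.10 to 0.11). The difference for Junb reversed to 0.19 without the 3 farthest libraries and to 0.08 without glutamate replicate 4.

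**Figure D3:**
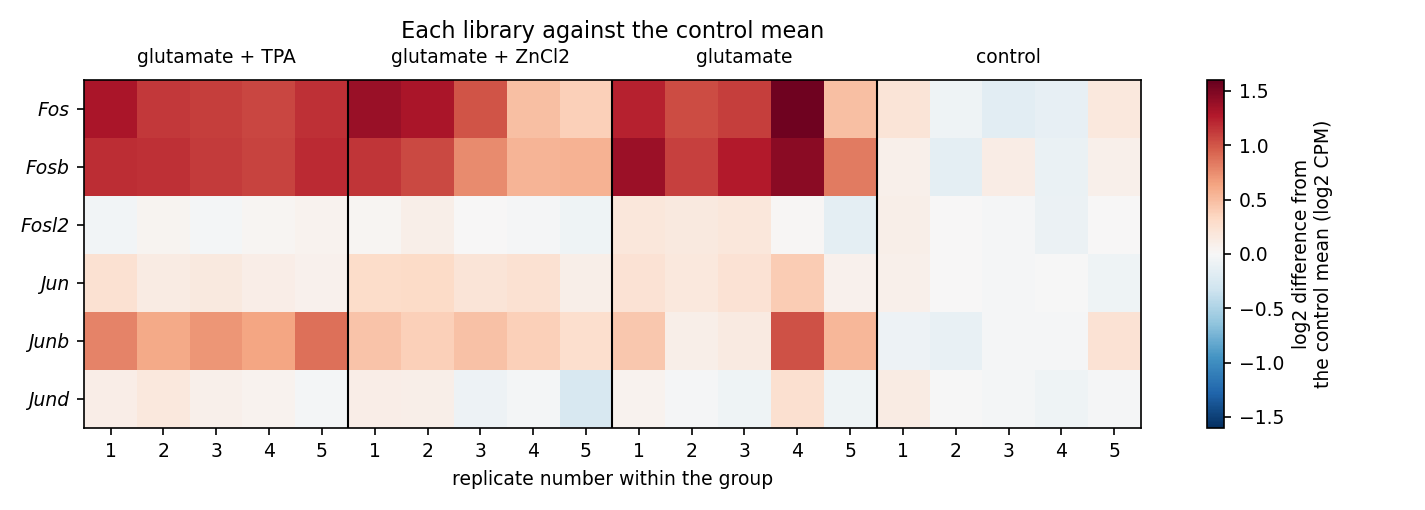
Log2 CPM of each member in each library minus its control mean (red above, blue below), libraries by group and replicate number. Fos and Fosb are above the control mean in all 15 stimulated libraries, by 0.39 to 1.55 for Fos and 0.55 to 1.45 for Fosb, and glutamate replicate 4 stands highest for Fos, Fosb, Jun, Junb and Jund.

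Within groups the libraries tended to be high or low for several members at once. Glutamate replicate 4 lay above its group mean for 5 of 6 members, by 0.58 for Junb and 0.47 for Fos on the log2 scale. Glutamate replicate 5 lay below it for 5 of 6, by 0.60 for Fos. Zinc replicate 1 was above and zinc replicate 5 below their group mean for 6 of 6 members, and control replicate 4 was below for 6 of 6. Over the 20 libraries, Pearson's r of log2 CPM between Fos and Fosb was 0.96, and it was 0.91 over deviations from the group means. Control replicate 3 was an exception, with a deviation of -0.17 for Fos and 0.11 for Fosb. For Fos and Junb the values were 0.76 and 0.37, for Fos and Jun 0.81 and 0.76, for Jun and Jund 0.49 and 0.85, and for Fosl2 and Junb -0.14 and -0.38. These are descriptions over 20 libraries that share their group structure and their scaling factors.

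**Figure D4:**
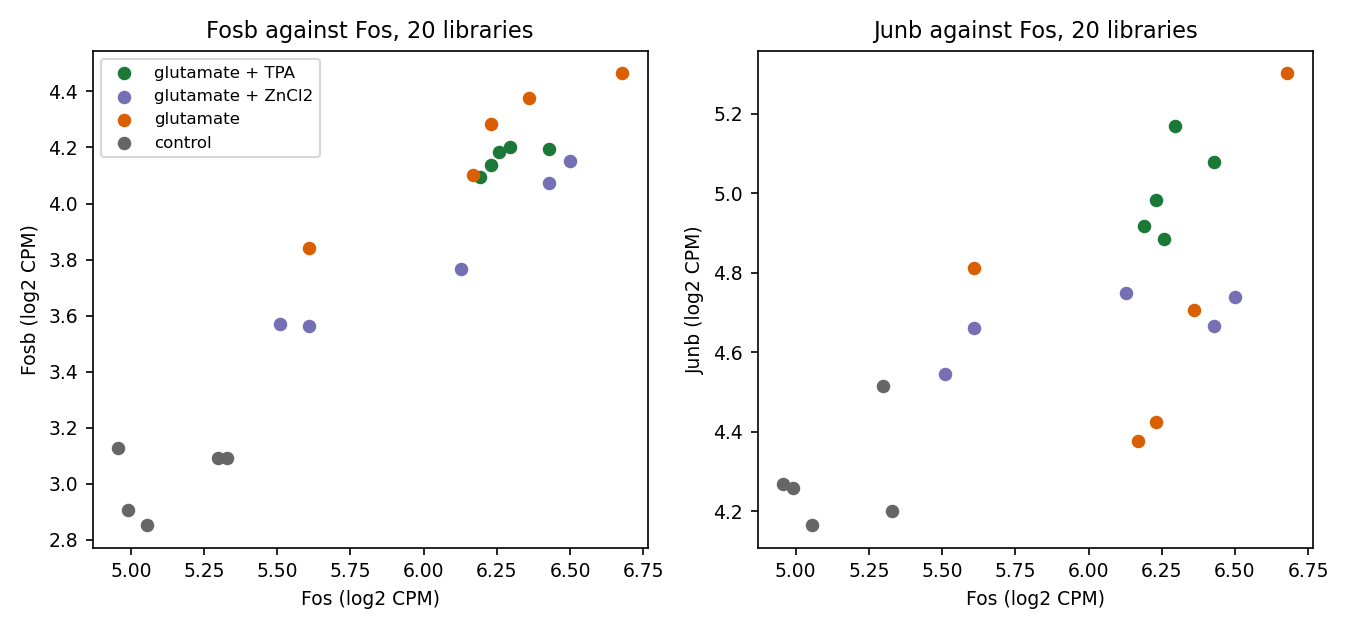
Fosb against Fos (left) and Junb against Fos (right) in log2 CPM, each point 1 of the 20 libraries, coloured by group. Over all 20 libraries r is 0.96 for Fosb and 0.76 for Junb, and among the controls Fosb does not follow Fos in every library.

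Among 11884 genes averaging 1 CPM or more, those whose log2 CPM followed Fos most closely over the 20 libraries were Fosb, Npas4 (r = 0.93, and 0.92 over deviations from the group means), a neuron-specific activity-dependent transcription factor, and Nr4a1 (0.88 and 0.92), an orphan nuclear receptor. For Fosb they were Fos, Npas4 (0.91 and 0.88) and Klf4 (0.91 and 0.54), a zinc-finger factor. For Junb they were Egr1 (0.91 and 0.80), a zinc-finger factor induced by activity, Cyr61 (0.91 and 0.72), a secreted matrix protein, and Gadd45g (0.88 and 0.82), a stress-response protein. For Klf4 the value within groups was well below that over all libraries.

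**Figure D5:**
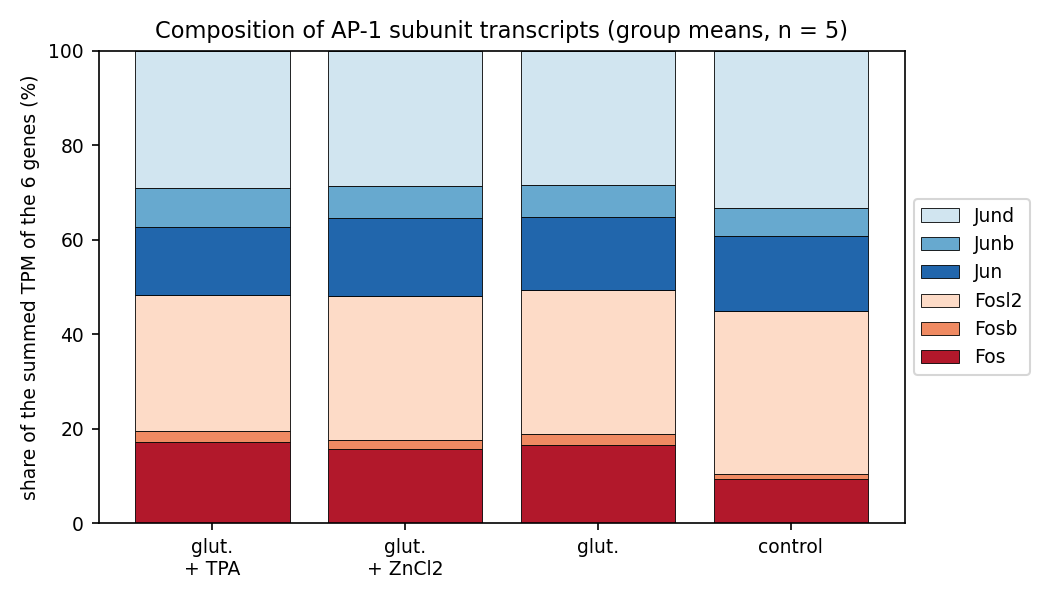
Share of each member in the summed TPM of the 6 genes (y axis, percent, group means of 5 libraries) for the 4 groups. The shares of Fos and Fosb are larger, and those of Fosl2 and Jund smaller, in each stimulated group than in control.

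The make-up of the AP-1 pool differed between stimulated and control cultures. The 6 genes summed to 647 ± 14.8 TPM with TPA, 613 ± 65.9 TPM with zinc and 653 ± 69.4 TPM with glutamate, against 538 ± 28.5 TPM in control (SD, n = 5). Fos made up 17.2 ± 0.832% of this sum with TPA, 15.7 ± 3.35% with zinc and 16.6 ± 2.59% with glutamate, against 9.32 ± 0.797% in control. The share of Fosb was 2.20 ± 0.0483% with TPA, 1.85 ± 0.189% with zinc and 2.29 ± 0.173% with glutamate, against 1.19 ± 0.0925% in control. Neither share overlapped between any stimulated group and control. Fosl2 made up 28.8 ± 1.21% with TPA, 30.5 ± 2.01% with zinc and 30.4 ± 3.13% with glutamate, against 34.4 ± 0.434% in control. The 3 JUN genes together stood at 1.07 ± 0.0375 times the 3 FOS genes with TPA, 1.08 ± 0.0825 times with zinc and 1.03 ± 0.134 times with glutamate, against 1.23 ± 0.0341 times in control. Shares are tied to each other, so these values restate the levels above and were not tested.

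Other genes of the AP-1 pathway were counted from lists of their roles. For reading the counts at an unadjusted p under 0.05, the share of all tested genes there was 3.09% with TPA, 11.1% with zinc, 4.98% with glutamate and 4.45% in the mean over control, 16.0% for TPA over zinc, 7.15% for TPA over glutamate and 5.98% for zinc over glutamate. Of 15 further bZIP genes that can pair with FOS or JUN proteins, 11 were tested and 0 were called in any comparison by edgeR, DESeq2 or limma-voom, with at most 4 at an unadjusted p under 0.05. Maff, a small MAF protein, differed by 0.55 ± 0.23 (log2, SE) and Atf7 by 0.17 ± 0.08 in glutamate over control, and Jdp2, a repressor of AP-1 sites, by 0.09 ± 0.05 in the mean. Of 18 kinases upstream of FOS and JUN all were tested and edgeR called 0 in any comparison, with at most 2 at an unadjusted p under 0.05, while DESeq2 called Mapk14 between TPA and zinc and limma-voom called 0. Among 17 tested transcription factors and coactivators of these promoters, edgeR called 0 over control in any group, with at most 4 at an unadjusted p under 0.05, DESeq2 called Mkl1 with zinc and limma-voom called 0. Srf, the factor that binds the CArG box, is counted in this list and among the immediate early genes, and was higher with TPA at 53.6 ± 4.29 CPM than with zinc at 44.7 ± 3.23 CPM (log2 fold change 0.26 ± 0.06, edgeR adjusted p = 0.0412).

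Of 13 genes for decay of FOS and JUN mRNA and protein, 11 were tested and 0 were called by edgeR, DESeq2 or limma-voom in any comparison, with at most 2 at an unadjusted p under 0.05. Trib1, a pseudokinase that brings proteins to the COP1 ubiquitin ligase, differed by 0.32 ± 0.10 (log2, SE) in glutamate over control (edgeR adjusted p = 0.779). Among 30 genes described as targets of FOS and JUN factors in brain, 25 were tested and edgeR called 0 in any comparison, with at most 6 at an unadjusted p under 0.05, and DESeq2 called Bdnf between TPA and zinc while limma-voom called 0. Their median log2 fold change was -0.04 with TPA, 0.06 with zinc and -0.01 with glutamate. Nfkb1, an NF-κB subunit, differed by 0.24 ± 0.07 in glutamate over control (adjusted p = 0.779).

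Other immediate early genes moved in part with the members. Of 31 such genes 30 were tested, and edgeR called 6 higher with TPA over control, 0 with zinc, 1 with glutamate and 4 in the mean, and none lower. Of all tested genes, 0.0694%, 0.0208%, 0.0208% and 0.0486% were called higher in the same order. With zinc 7 of 30 had an unadjusted p under 0.05, against 11.1% of all tested genes, DESeq2 called 2 (Cyr61 and Klf4) and limma-voom 0. With TPA over control, Klf4 rose by a log2 fold change of 1.68 ± 0.18 (SE, edgeR adjusted p = 2.86e-05), Cyr61 by 1.46 ± 0.20 (0.00188) and Npas4 by 1.12 ± 0.16 (0.00457). In the same comparison Egr2 rose by 1.02 ± 0.15 (0.00188), Egr1 by 0.69 ± 0.11 (0.0116) and Egr4 by 0.43 ± 0.08 (0.0213). Klf4 also rose with glutamate, by 1.56 ± 0.18 (adjusted p = 0.000102), and was higher with TPA than with zinc (0.91 ± 0.17, adjusted p = 0.0199). Handling and heat-shock genes, 11 tested of 12, had a median log2 fold change of -0.03 with TPA, 0.34 with zinc and 0.18 with glutamate over control. With zinc the heat-shock genes Hspa1a, Hspa1b, Dnajb1, Hsph1 and Hspa8 lay between -0.05 and 0.12. Hspa5, Hmox1, Gadd45a, Gadd45b, Gadd45g and Ddit3 lay between 0.34 and 0.46 there. None of the 11 was called by edgeR, with 2, 6 and 2 at an unadjusted p under 0.05 in the same order, against 3.09%, 11.1% and 4.98% of all tested genes, and DESeq2 and limma-voom called 0 in these 3 comparisons. With zinc, the 6 were Hspa5, Hmox1, Gadd45a, Gadd45b, Gadd45g and Ddit3. For TPA over zinc their median was -0.22, with 6 of 11 at an unadjusted p under 0.05 against 16.0% of all tested genes, 0 called by edgeR or limma-voom and Hmox1 called by DESeq2. Their part in the differences between groups was not tested.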

How the data were processed

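Polyadenylated RNA of 20 libraries, 4 groups of 5, was sequenced from stranded libraries, per the labels' protocols. Per the submitters' processing notes, the tools were HISAT2 2.1.0 and featureCounts on mm10, with Trimmomatic 0.36, DESeq2 1.14.1, SAMtools 1.3.1 and R 3.3.0 also named. The sources used here do not give the strand setting of the counting. The authors deposited whole-number counts for 24419 genes, which alone entered tests, and TPM, which recomputation from the deposited counts and gene lengths matched. Their 6 comparison tables hold a mean normalized signal, a log2 fold change, a test score, and p-values, as deposited by the authors.

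Genes kept by edgeR's filterByExpr (14411, holding 99.98% of counts) were fitted in 1 quasi-likelihood model (edgeR 4.0.16, R 4.3.3) of 20 libraries with 4 group means, TMM scaling and no covariate. Contrasts used a threshold of 0.05 after Benjamini-Hochberg adjustment over all tested genes, and the standard error is the log2 fold change divided by the root of F. Log2 CPM used a prior count of 2. "Rose", "fell" and "changed" are used past that threshold. Alternatives were DESeq2 1.42.0, limma 3.58.1 (voom), other scalings and filters, a block for the replicate number, leaving out each library, and fits of 2 groups alone; library weights and leaving out 3 libraries were added after seeing the data. The model was tested on simulated counts with known changes. No pair of replicates agreed within sampling noise. The members, the gene lists and the tests were chosen with earlier results of these data known. All 6 members are named in every comparison, from each list the genes past the threshold and some of the up to 3 with the smallest p-values in glutamate and in the mean over control, and for likeness the 3 genes with the highest correlation. Promoter sequences and starts are RefSeq's on GRCm38.p6, matched by symbol for 6 of 6 members; the 3′ UTR counts use the longest UTR per gene in GENCODE M21 and were added after the values were seen.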

Additional observations from a re-analysis of the deposited data

Results flagged for a closer look

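Of 24 sets of 5 libraries (6 members in 4 groups), 2 had a library that stood apart by its gap to the nearest of the others relative to the group's whole range, against about 1 in 20 by chance. Both are control libraries. Junb had 22.8 CPM in control replicate 5, where the next highest control had 19.2 CPM (gap 0.728 of the range), and this value alone reached the range of the glutamate group. Jund had 187 CPM in control replicate 1, where the next highest control had 170.3 CPM (gap 0.714 of the range). The critical value for 5 libraries was 0.71.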

How the results depend on the processing

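Fosb passed the threshold over control in each of the 4 comparisons under every alternative run. With glutamate over control the number of members called was 1, and it was 2 with DESeq2's size factors, limma-voom or a mean of at least 1 CPM (Fos added), 3 with DESeq2 or with library weights, and 4 without the 3 farthest libraries. With zinc over control it was 1, and 2 with the replicate block (Jun added), 3 with DESeq2, and 4 without the 3 farthest libraries or with library weights. With TPA over control it was 3, and 1 with no filter. In the mean it was 2, and 1 with no filter and 4 with DESeq2, without the 3 farthest libraries or with library weights. For TPA over glutamate it was 0, and 2 without the 3 farthest libraries and 1 with library weights. For TPA over zinc it was 0, and 1 without the 3 farthest libraries and 2 with library weights. For zinc over glutamate it was 0 under all alternatives. These settings also moved the share of all genes called. For TPA over zinc, 74 of all tested genes were called, against 1149 (7.90%) without the 3 farthest libraries, 3131 (21.7%) with library weights, 496 with DESeq2 and 422 with the replicate block, and 37 with library size alone, 41 with no filter and 6 in the 2 groups alone. For zinc over control the count was 6, against 231 (1.59%), 1825 (12.7%), 64 and 39 in the same order. For TPA over glutamate it was 0, against 551 (3.79%) without the 3 libraries and 484 (3.36%) with library weights, and for zinc over glutamate 0, against 1 and 107 in the same order. For glutamate over control it was 3, against 100, 59 and 14 without the 3 libraries, with library weights and with DESeq2, and in the mean 7, against 13, 33 and 16, and 3 with no filter. Leaving out each library gave 5 to 899 genes called for TPA over zinc, 3 to 100 with zinc, 6 to 11 with TPA, 2 to 5 with glutamate, 3 to 11 in the mean, 0 to 2 for TPA over glutamate and 0 to 3 for zinc over glutamate. The 899 for TPA over zinc and the 100 with zinc were both without zinc replicate 4. Leaving out each library gave 1 to 2 members with glutamate, 1 to 2 with zinc, 1 to 3 with TPA, 1 to 3 in the mean and 0 to 1 for TPA over zinc. Library weights in limma-voom and leaving out the 3 farthest libraries were chosen after seeing the data, and the cause of these shifts was not tested.

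Reversals concerned differences near 0 and, for Junb, zinc over glutamate. Without the 3 farthest libraries the log2 fold change was -0.0131 for Jund with glutamate, 0.0231 for Jund with zinc, 0.195 for Junb and 0.0361 for Jund in zinc over glutamate, and -0.0169 for Fosl2 in TPA over zinc. With library weights it was 0.00922 for Jund with zinc, 0.0963 for Junb in zinc over glutamate, -0.000615 for Fos in TPA over glutamate and -0.0102 for Fosl2 in TPA over zinc. For Fosl2 in TPA over zinc it was also -0.0106 with library size alone, -0.00941 with a mean of at least 1 CPM, -0.00108 with no filter and -0.00165 in the 2 groups alone. Leaving out each library gave -0.0269 to 0.0688 for Jund with glutamate, -0.0176 to 0.0277 for Fosl2 with zinc, -0.0625 to 0.0231 for Jund with zinc and -0.0138 to 0.0302 for Fosl2 with TPA. In zinc over glutamate it gave -0.0344 to 0.0559 for Jun, -0.178 to 0.0838 for Junb and -0.0974 to 0.00166 for Jund. It gave -0.0926 to 0.164 for Fos in TPA over glutamate and -0.0170 to 0.0251 for Fosl2 in TPA over zinc.

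The replicate numbers were not taken to pair libraries in the main fit. Of 30 same-numbered pairs, 11 correlated over 0.1 in their deviations and 7 below 0 (median 0.06, range -0.07 to 0.50). Pairs with unlike numbers were not compared, so whether the numbers pair libraries was not settled. With the replicate block, 1 member passed with glutamate, 3 with TPA and 3 in the mean, where Jun was added (edgeR adjusted p = 0.0338), as it was with zinc (0.0208). The lowest count of a member in any library was 273.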
